A study of Homo sapiens with 4 samples.

Results

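Long noncoding RNAs that are abundant in human cells or linked to cancer were followed through knockdown of WDR43 in the established human cell line HCT116, derived from a colorectal carcinoma. The 9 genes were OLMALINC, NEAT1, MALAT1, H19, CCAT1, PVT1, TUG1, CYTOR and LINC-PINT, taken by name and looked up through their Ensembl identifiers. Of these, 8 had a value among the 29286 genes of the deposited tables. CCAT1, a transcript of the MYC region named for colon cancer, had no identifier in the name tables and was not analysed here.

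The groups were shWDR43, cells with a lentiviral short hairpin against WDR43, and shNC, cells with a control hairpin that the sample titles call shNC2. There were 2 libraries in each group, 4 in all. Both groups are HCT116, grown alike, infected for 48 h and selected with puromycin for 3 days before RNA extraction, and the genotype labels read WDR43 knockdown and Control. WDR43 works in the nucleolus, in the complex that assembles the small ribosomal subunit, and the comparison asks how gene expression differs when it is depleted. The labels name a single WDR43 hairpin and leave unsaid whether the replicates are separate cultures. The p-values cover only variation among these 4 libraries, which may be technical.

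Values were read as FPKM, a fragment count divided by transcript length and library total, so that levels are per length and genes can be set beside each other. They summed to 411816 and 402393 in the shWDR43 libraries and to 393582 and 413758 in the shNC libraries, and the depth behind them is unknown. WDR43 itself was not analysed here, so the knockdown was not checked. Of 10 colorectal epithelial markers, 7 stood at 1 FPKM or more in every library (EPCAM, CDH1, KRT8, KRT18, KRT19, CLDN4 and CLDN7), with sums of 2606 to 2635 FPKM in shWDR43 against 1822 to 2160 FPKM in shNC. VIL1 and CEACAM5 were near 0 throughout and CDX1 was not analysed here. Of 10 markers of other cell types, 6 had a value and their sums were 6.96 to 8.13 FPKM in shWDR43 against 8.67 to 9.15 FPKM in shNC, mostly from COL1A1. The part of these marker levels in the results was not tested. These are bulk libraries, in which fewer cells with an RNA and less of it per cell cannot be told apart.

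Long noncoding RNAs are transcripts that are not translated into a known protein. Some act in the nucleus as scaffolds: NEAT1 is the RNA core of paraspeckles, and MALAT1 gathers in nuclear speckles beside splicing factors. Others are known for the genes they lie next to: PVT1 neighbours MYC and is often amplified with it in tumours, H19 is the maternally expressed imprinted partner of IGF2, and OLMALINC, named from oligodendrocyte maturation, lies beside SCD. TUG1 and CYTOR are mostly described in cancer growth and cytoskeletal regulation, and LINC-PINT as a p53-induced RNA with tumour-suppressing roles.

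OLMALINC fell in shWDR43 cells, to 0.552 times its shNC level, and it was the only one of the 8 genes to pass the test, against 6.26% of all genes tested. MALAT1 was far above all the others, and its difference between groups turned direction with the choice of control library. CYTOR stood higher and LINC-PINT lower in both shWDR43 libraries, without passing the threshold, and groups that do not overlap were found for 57.3% of all genes tested. NEAT1, PVT1, TUG1 and H19 overlapped between groups. No gene of the 8 was below 1 FPKM in every library, the limit used here for not expressed. H19 was under it in 1 library.

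**Figure D1:**
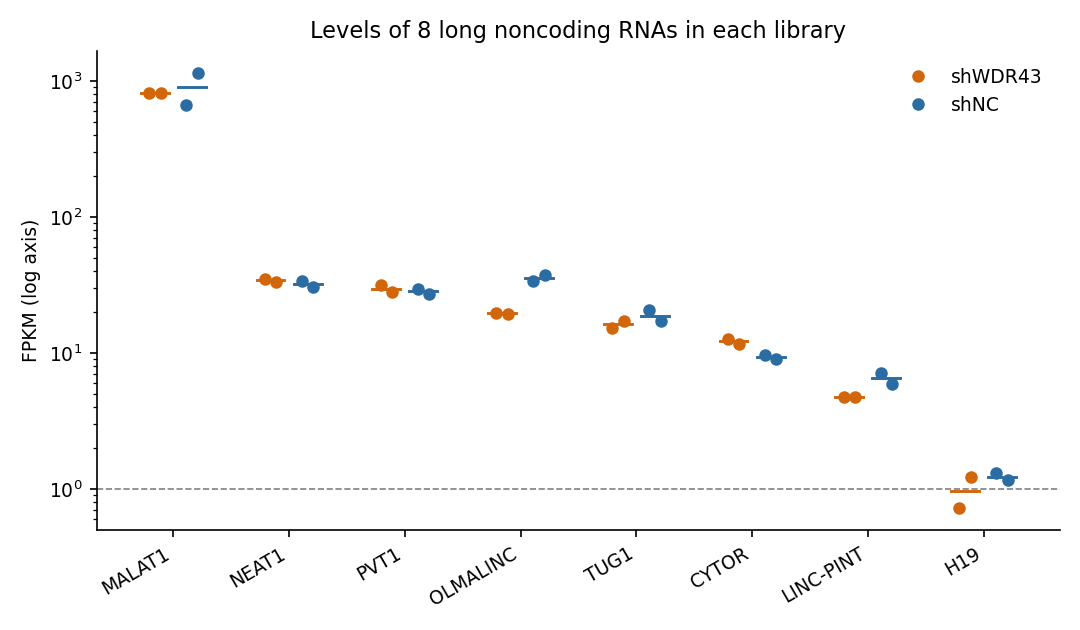
FPKM on a log axis for the 8 long noncoding RNAs, with a point for each library, a bar at each group mean (n = 2), and a dashed line at 1 FPKM. MALAT1 spans 661 to 1154 FPKM, OLMALINC is at 19.5 to 19.7 FPKM in shWDR43 against 33.6 to 37.3 FPKM in shNC, and H19 lies at the line.

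The promoter of OLMALINC is shown beside that of SCD because these 2 neighbouring genes, on the same strand of chromosome 10, were both lower in shWDR43 cells. Each window runs from 250 bases before to 50 bases after the start of a transcript (RefSeq, GRCh38.p14, plus strand), at chr10:100373326-100373625 for OLMALINC and chr10:100346983-100347282 for SCD. Capitals mark CCAAT, the letters of the box bound by the factor NF-Y.
OLMALINC: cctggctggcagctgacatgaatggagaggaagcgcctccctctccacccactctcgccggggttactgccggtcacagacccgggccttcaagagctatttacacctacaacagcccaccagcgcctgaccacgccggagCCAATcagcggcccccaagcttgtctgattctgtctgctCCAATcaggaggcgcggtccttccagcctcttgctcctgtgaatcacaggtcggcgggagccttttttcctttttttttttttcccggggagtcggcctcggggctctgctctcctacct
SCD: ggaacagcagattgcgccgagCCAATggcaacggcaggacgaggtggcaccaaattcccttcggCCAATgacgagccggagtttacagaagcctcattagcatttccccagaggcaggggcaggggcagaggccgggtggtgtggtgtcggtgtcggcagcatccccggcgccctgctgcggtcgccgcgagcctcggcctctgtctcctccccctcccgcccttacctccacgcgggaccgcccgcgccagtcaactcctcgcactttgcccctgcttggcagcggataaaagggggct
Searched on both strands, CCAAT occurred at window positions 142 and 181 in OLMALINC and at 22 and 65 in SCD. Of all 35116 promoter windows of this length, 34.6% held CCAAT and 10.8% held it at 2 or more places. Neither window held CACGTG, an E-box found in 7.26% of windows, or TGATGNAA, the element bound by C/EBP and ATF factors and found in 3.62%. The OLMALINC window also held a p53 decamer, the short motif of which p53 binds a pair, at position 158, and 6.63% of windows held at least 1. A match describes the letters only.

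OLMALINC (ENSG00000235823, chr10:100373513-100454043, plus strand, GRCh38) stood at 19.7 and 19.5 FPKM in shWDR43 against 33.6 and 37.3 FPKM in shNC. The groups were far apart, and the shWDR43 libraries lay almost on top of each other. Its mean was 19.6 ± 0.156 FPKM in shWDR43 and 35.5 ± 2.63 FPKM in shNC (SD, n = 2 each), a difference of -0.82 ± 0.09 (SE) on the log2(FPKM + 1) scale with a 95% interval of -1.03 to -0.62 (limma, adjusted p = 0.00783 by the Benjamini-Hochberg method over 13303 genes). Of those 13303 genes, 32 had a difference at or below this, OLMALINC included, and so did 6 of the 1099 long noncoding genes tested. OLMALINC was placed among the 9 with its fall in these libraries known, so its call is not independent evidence. Across 13 alternative fits the difference ran from -0.90 to -0.75 and the adjusted p from 8.0e-05 to 0.0699, and the call was lost in the fit with no filter on low values. No other gene with a value overlaps OLMALINC in GENCODE release 29.

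SCD (ENSG00000099194), which encodes the stearoyl-CoA desaturase that makes monounsaturated fatty acids, ends 8678 bases before OLMALINC starts. It stood at 115.8 and 121 FPKM in shWDR43 against 198 and 186 FPKM in shNC, and it fell to 0.616 times its shNC mean (log2 difference -0.69 ± 0.09, limma adjusted p = 0.0153). Without shWDR43 replicate 1 the SCD difference was -0.66 and its adjusted p 0.0555, and the call was also lost with no filter on low values, in a range of 0.00149 to 0.0865 over all fits. In human liver cells OLMALINC has been described as a regulator of SCD. The level of OLMALINC was 0.1699 and 0.161 times that of SCD in shWDR43 and 0.1697 and 0.201 times in shNC. These ratios overlapped between the groups only by a very narrow margin. SEC31B, a COPII coat gene 32598 bases on the other side, had 16.4 and 16.0 FPKM in shWDR43 against 19.7 and 15.0 FPKM in shNC, with overlapping groups (log2 difference -0.08, limma adjusted p = 0.722).

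The genes with the profile most like that of OLMALINC over the 4 libraries were ranked by Euclidean distance between centred log2(FPKM + 1) profiles, among the 8219 genes whose mean reached 5 FPKM. Among the nearest were the protocadherin PCDH7 (distance 0.109) and AARS1, the cytosolic alanyl-tRNA synthetase (0.1197). PCDH7 had 28.6 and 26.8 FPKM in shWDR43 against 43.6 and 51.3 FPKM in shNC. Within a distance of 0.25 there were 19 genes and within 0.5 there were 241. With 4 libraries, a small distance largely reflects a similar difference between groups, so it is not independent evidence on OLMALINC.

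Among the 8 genes, 1 of 8 fell and none rose in the limma test, where 1.47% of all 13303 genes tested fell and 4.79% rose. At an unadjusted p under 0.05 in the same test, 1 of the 8 stood higher (CYTOR), against 17.8% of all genes tested, and 2 stood lower (OLMALINC and LINC-PINT), against 8.63%. With upper-quartile scaling the count over all genes was 327 higher and 287 lower, in place of 637 higher and 196 lower, which moves the background of falls. Groups did not overlap for 3 of the 8 (OLMALINC, CYTOR and LINC-PINT), a smaller share than among all genes tested. The median log2 difference was -0.15 over the 8 and 0.05 over all genes tested, with 3 of the 8 positive and 5 negative. With 2 libraries a group, an exact permutation test could not go below p = 0.333.

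**Figure D2:**
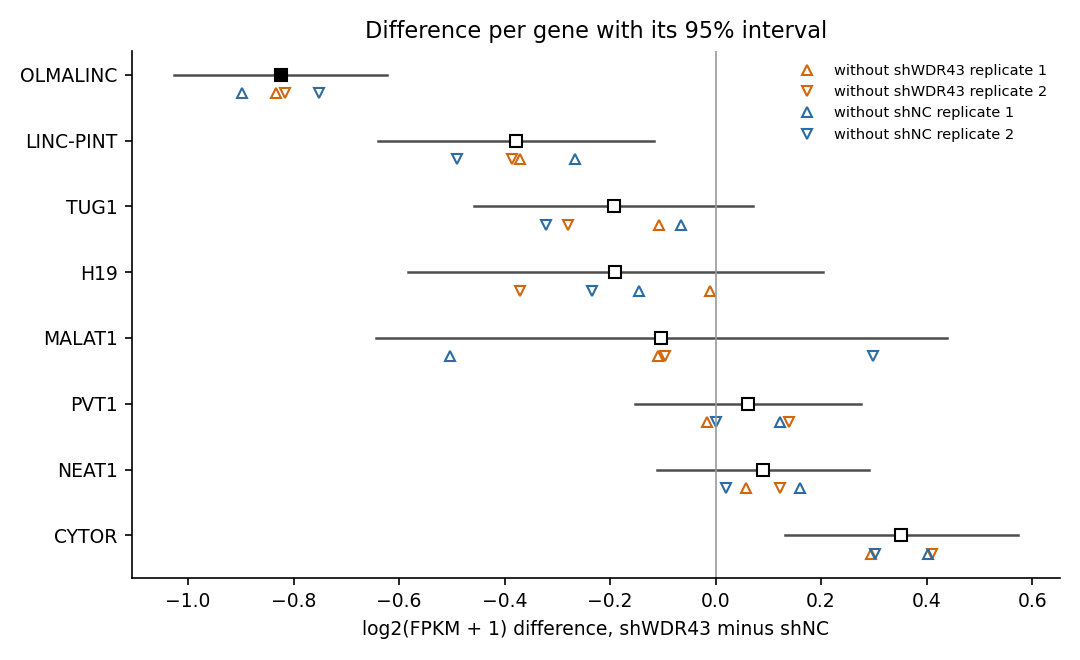
Difference in log2(FPKM + 1), shWDR43 minus shNC, for each gene (square) with its 95% interval from limma, filled where the adjusted p is under 0.05, and below it the value when each library is left out (triangles). OLMALINC stays between -0.90 and -0.75, whereas MALAT1 moves from -0.50 to 0.30 with the shNC library left out.

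MALAT1 (ENSG00000251562, chr11:65497688-65506516, plus strand) was the most abundant long noncoding RNA of the tables and ranked 50 among all genes by mean FPKM. It stood at 817 and 809 FPKM in shWDR43 against 661 and 1154 FPKM in shNC. Both shWDR43 values lay between the shNC values. The mean was 813 ± 5.93 FPKM in shWDR43 and 907 ± 348 FPKM in shNC (SD, n = 2 each), and the log2 difference of -0.10 ± 0.23 had a 95% interval of -0.64 to 0.44 (limma, adjusted p = 0.818). The shNC libraries differed by 0.80 on the log2 scale, a gap matched or exceeded by 0.752% of genes tested, whereas the shWDR43 gap of 0.0149 was matched or exceeded by 90.4%. Without shNC replicate 2 the MALAT1 difference was 0.30 (limma, adjusted p = 0.0168), and without shNC replicate 1 it was -0.50 (adjusted p = 0.00622), in a range of adjusted p of 0.00622 to 0.928 over 13 alternatives. The direction for MALAT1 is therefore set by which control library is kept.

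MALAT1 has no poly(A) tail: RNase P and ELAC2, the tRNA-processing RNase Z, cut its precursor and leave a folded end. The labels name an Illumina TruSeq RNA kit and not whether poly(A) RNA was selected. The summed level of 70 replication-dependent histone genes, whose mRNAs also lack a tail, was 74.0 and 68.3 FPKM in shWDR43 against 51.6 and 65.7 FPKM in shNC. This sum was higher in shNC replicate 2 than in shNC replicate 1, as MALAT1 was, and its part in the MALAT1 values was not tested. ELAC2 rose, with 17.3 and 16.3 FPKM in shWDR43 against 12.1 and 12.9 FPKM in shNC (log2 difference 0.40, limma adjusted p = 0.0439). It was the only one of 17 MALAT1-processing and nuclear speckle genes to pass, where 6.26% of all genes tested passed. The ELAC2 call was lost without shWDR43 replicate 1 (adjusted p = 0.284) and without shWDR43 replicate 2 (adjusted p = 0.126), and also under each of the 3 other scalings and with no filter on low values. It held in 7 of 14 fits, and over these its adjusted p ran from 0.0140 to 0.284. The median difference of these 17 genes was 0.01, with 10 positive and 7 negative.

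NEAT1 (ENSG00000245532, chr11:65422774-65445540, plus strand), upstream of MALAT1 on the same strand, stood at 35.0 and 33.4 FPKM in shWDR43 against 33.7 and 30.5 FPKM in shNC. The groups overlapped. The mean was 34.2 ± 1.09 FPKM in shWDR43 and 32.1 ± 2.29 FPKM in shNC (SD, n = 2 each), with a log2 difference of 0.09 ± 0.09 and a 95% interval of -0.11 to 0.29 (limma, adjusted p = 0.549). The difference stayed between 0.02 and 0.16 under all alternatives and never passed the threshold. A pair of isoforms share the NEAT1 start, a short polyadenylated one of 3441 bases and a long one of 22743 bases in GENCODE 29 that builds the paraspeckle, and a gene-level value does not separate them. The ratio of OLMALINC to NEAT1, a pair of nearly equal level in shNC, was 0.563 and 0.582 in shWDR43 against 0.997 and 1.23 in shNC.

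The paraspeckle proteins that bind NEAT1 were measured at 15 of 15 genes, with a median log2 difference of -0.11 (4 positive, 11 negative). Of these 15, 1 rose and 1 fell, where 4.79% of all genes tested rose and 1.47% fell. SFPQ, a core protein needed for paraspeckles, had 58.6 and 63.1 FPKM in shWDR43 against 87.5 and 84.1 FPKM in shNC, and it fell (log2 difference -0.49, limma adjusted p = 0.0263). TARDBP, the RNA-binding protein TDP-43, had 34.3 and 35.0 FPKM in shWDR43 against 27.2 and 26.9 FPKM in shNC, and it rose (0.35, limma adjusted p = 0.0445). Groups did not overlap for either gene, as for 57.3% of all genes tested. Both calls were lost when either shWDR43 library was left out: the adjusted p for SFPQ was 0.179 without replicate 1 and 0.0582 without replicate 2, and for TARDBP 0.257 and 0.286. The TARDBP call was also lost under each of the 3 other scalings, and both were lost with no filter on low values, so that SFPQ passed in 11 and TARDBP in 7 of 14 fits. Over all fits the adjusted p ran from 0.00464 to 0.179 for SFPQ and from 0.0173 to 0.286 for TARDBP.

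PVT1 (ENSG00000249859, chr8:127794533-128101253, plus strand) stood at 31.4 and 28.1 FPKM in shWDR43 against 29.7 and 27.2 FPKM in shNC. The groups overlapped, and the mean was 29.7 ± 2.32 FPKM in shWDR43 and 28.4 ± 1.73 FPKM in shNC (SD, n = 2 each). The log2 difference was 0.06 ± 0.09, with a 95% interval of -0.15 to 0.28 (limma, adjusted p = 0.713). Its sign turned to -0.02 without shWDR43 replicate 1 and to -0.0077 with upper-quartile scaling. MYC, the transcription factor gene 53098 bases before PVT1, stood at 126 and 135 FPKM in shWDR43 against 116.004 and 132 FPKM in shNC, with overlapping groups (log2 difference 0.07, limma adjusted p = 0.703). PVT1 was at 0.2496 and 0.208 times the MYC level in shWDR43 and at 0.256 and 0.205 times in shNC. Of 8 further long noncoding RNA or pseudogene names of the 8q24 region, 7 had a value and 1, CASC19, was high enough to test: it had 2.71 and 2.29 FPKM in shWDR43 against 3.62 and 3.22 FPKM in shNC (log2 difference -0.34, limma adjusted p = 0.134).

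H19 (ENSG00000130600, chr11:1995176-2001470, minus strand) stood at 0.727 and 1.22 FPKM in shWDR43 against 1.30 and 1.16 FPKM in shNC. It reached 1 FPKM in 3 of the 4 libraries and was the only one of the 8 below that level anywhere. The groups overlapped, with a mean of 0.971 ± 0.346 FPKM in shWDR43 and 1.23 ± 0.0972 FPKM in shNC (SD, n = 2 each) and a log2 difference of -0.19 ± 0.17, 95% interval -0.58 to 0.20 (limma, adjusted p = 0.514). IGF2, the growth factor gene of the same imprinted cluster, had 7.53 and 7.57 FPKM in shWDR43 against 7.64 and 6.74 FPKM in shNC (0.07, limma adjusted p = 0.720). MRPL23, a mitochondrial ribosomal protein gene 10653 bases on the other side, had 7.48 and 8.42 FPKM in shWDR43 against 4.29 and 5.81 FPKM in shNC. The MRPL23 groups did not overlap, and the difference of 0.57 missed the threshold (limma, adjusted p = 0.0537). It passed without shNC replicate 2 (0.76, adjusted p = 0.00653) and without shWDR43 replicate 1 (0.65, adjusted p = 0.0209), and also with a filter at 5 FPKM and with either replicate block, in 5 of 14 fits, and over all fits its adjusted p ran from 0.00653 to 0.169.

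TUG1 (ENSG00000253352, chr22:30969245-30979395, plus strand) stood at 15.3 and 17.3 FPKM in shWDR43 against 20.6 and 17.1 FPKM in shNC. The higher shWDR43 value lay just above the lower shNC value. The mean was 16.3 ± 1.45 FPKM in shWDR43 and 18.8 ± 2.48 FPKM in shNC (SD, n = 2 each), with a log2 difference of -0.19 ± 0.11 and a 95% interval of -0.46 to 0.07 (limma, adjusted p = 0.320). TUG1 starts 946 bases from MORC2, a chromatin-silencing ATPase gene that runs the other way. MORC2 had 8.49 and 8.78 FPKM in shWDR43 against 10.3 and 10.8 FPKM in shNC, with groups apart and a difference of -0.26 that did not pass (limma, adjusted p = 0.116). The TUG1 promoter window held CCAAT at 2 places and CACGTG at 1.

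CYTOR (ENSG00000222041, chr2:87454781-87636740, plus strand) stood at 12.8 and 11.7 FPKM in shWDR43 against 9.72 and 9.0035 FPKM in shNC. Both shWDR43 values were above both shNC values. The mean was 12.2 ± 0.749 FPKM in shWDR43 and 9.36 ± 0.509 FPKM in shNC (SD, n = 2 each), a ratio of 1.31 and a log2 difference of 0.35 ± 0.09, 95% interval 0.13 to 0.57, that missed the threshold (limma, adjusted p = 0.0681). It passed without shNC replicate 1 (0.40, adjusted p = 0.0363) and with a filter at 5 FPKM (adjusted p = 0.0499), in a range of 0.0363 to 0.440 over 13 alternatives. The adjusted p of 0.440 was that without shWDR43 replicate 1, where the difference was 0.29.

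CYTOR has a copy on the same chromosome, MIR4435-2HG, near-identical for some of its transcripts, so reads could be split between them. A stretch of a transcript of each from GENCODE 29 is shown. It holds the sole difference of these transcripts over 560 aligned bases, at 99.8% identity. The pair was picked as the longest of equal length that aligned in full without gaps. Capitals mark that base, and both stretches run from base 138 to base 198 of the transcript.
CYTOR-204: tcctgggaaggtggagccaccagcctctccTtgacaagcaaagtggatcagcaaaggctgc
MIR4435-2HG-214: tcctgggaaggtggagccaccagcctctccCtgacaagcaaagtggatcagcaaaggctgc
Of 38 CYTOR transcripts, 37 aligned to a MIR4435-2HG transcript over some stretch. By the best aligned block of each pair alone, 8 matched at 95% identity or more over at least 90% of their length. MIR4435-2HG had 13.8 and 14.8 FPKM in shWDR43 against 15.2 and 13.4 FPKM in shNC, with overlapping groups (log2 difference -0.0019, limma adjusted p = 0.994). The ratio of CYTOR to MIR4435-2HG was 0.924 and 0.791 in shWDR43 against 0.638 and 0.670 in shNC. The sources used here do not state how the authors' counting shared reads between the copies, so the CYTOR level is uncertain.

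LINC-PINT (ENSG00000231721, chr7:130938963-131110176, minus strand) stood at 4.72 and 4.78 FPKM in shWDR43 against 7.08 and 5.92 FPKM in shNC. Both shWDR43 values were below both shNC values. The mean was 4.75 ± 0.0416 FPKM in shWDR43 and 6.50 ± 0.819 FPKM in shNC (SD, n = 2 each), a ratio of 0.731 and a log2 difference of -0.38 ± 0.11, 95% interval -0.64 to -0.12, that missed the threshold (limma, adjusted p = 0.0857). It passed without shNC replicate 2 (-0.49, adjusted p = 0.0177), in a range of 0.0177 to 0.325 over 13 alternatives.

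The LINC-PINT locus is crowded, and the sources used here do not state whether counting used strand, so its value is uncertain. A same-strand gene, ENSG00000285106, shares 21.7% of the exon bases of LINC-PINT. That gene had 3.14 and 3.18 FPKM in shWDR43 against 2.41 and 1.90 FPKM in shNC, the opposite direction, and did not pass (log2 difference 0.40, limma adjusted p = 0.0986). It passed without shNC replicate 1 (0.52, adjusted p = 0.0368), in a range of 0.0368 to 0.363 over all fits. An opposite-strand gene, ENSG00000273319, shares 7.74% and had 0.518 and 0.646 FPKM in shWDR43 against 1.67 and 2.37 FPKM in shNC, and it fell (-0.92, limma adjusted p = 0.0290), a call lost with no filter on low values. A second GENCODE gene named LINC-PINT, ENSG00000226380 at chr7:130876809-130913310, had 1.202 and 0.889 FPKM in shWDR43 against 1.57 and 1.47 FPKM in shNC, which did not pass (-0.30, limma adjusted p = 0.233).

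In order of level, MALAT1 came first in every library, and TUG1, CYTOR, LINC-PINT and H19 followed in places 5 to 8 in every library. The middle places changed hands. In both shWDR43 libraries NEAT1 took place 2, PVT1 place 3 and OLMALINC place 4. In shNC, OLMALINC took place 3 in replicate 1 and place 2 in replicate 2. Over the 4 libraries the FPKM ranges of NEAT1 and PVT1 overlapped, as did those of PVT1 and OLMALINC and those of OLMALINC and TUG1, whereas the other neighbours in the order were apart. Among the 7394 long noncoding genes with a value, MALAT1 ranked 1, NEAT1 15, PVT1 17, OLMALINC 18, TUG1 35, CYTOR 59, LINC-PINT 131 and H19 963 by mean FPKM.

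**Figure D3:**
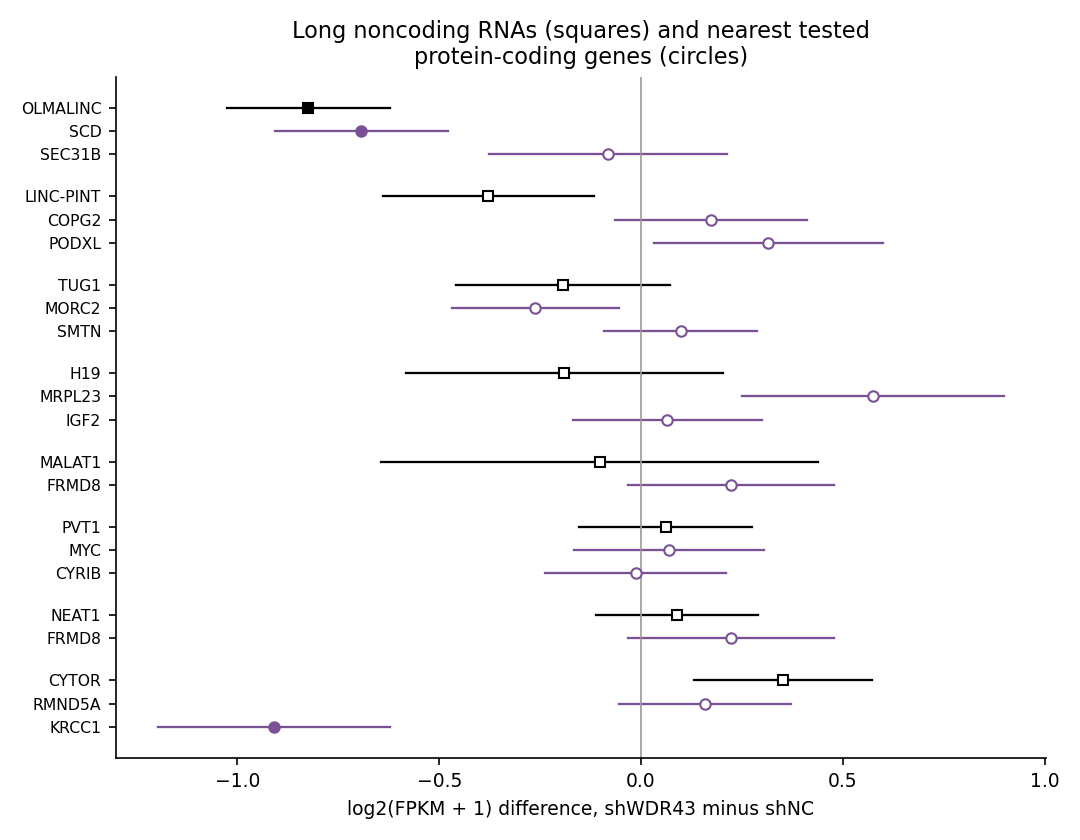
Difference in log2(FPKM + 1), shWDR43 minus shNC, with 95% intervals, for each long noncoding RNA (square) and neighbouring protein-coding genes (circles). Circles are the nearest tested protein-coding genes that do not overlap it, on each side (for NEAT1 and MALAT1 on 1 side). MKLN1, which overlaps LINC-PINT, is not plotted. Symbols are filled where the adjusted p is under 0.05. Of the neighbours plotted, SCD at -0.69 and KRCC1 at -0.91 are filled.

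Of the neighbouring protein-coding genes plotted, SCD and KRCC1 changed, where 6.26% of all genes tested did. KRCC1, a gene of little-known function 390464 bases beyond CYTOR, had 1.83 and 2.03 FPKM in shWDR43 against 4.12 and 4.90 FPKM in shNC, and it fell (-0.91, limma adjusted p = 0.0159) while CYTOR stood higher. Its call was lost with no filter on low values. FRMD8, which supports the protease that sheds TNF, lies before the NEAT1 and MALAT1 pair, and its difference was 0.22 (limma adjusted p = 0.243). MKLN1 overlaps the start of LINC-PINT by 81 bases on the opposite strand. It had 13.6 and 15.6 FPKM in shWDR43 against 15.3 and 12.2 FPKM in shNC, with overlapping groups (0.08, limma adjusted p = 0.713). Further out, PODXL, encoding the surface sialomucin podocalyxin, lies 390085 bases from LINC-PINT, with a difference of 0.32 (limma adjusted p = 0.152). COPG2, a COPI coat subunit, lies 270214 bases away on the other side, with a difference of 0.17 (limma adjusted p = 0.320). PODXL passed without shNC replicate 1 (adjusted p = 0.0167) and COPG2 without shNC replicate 2 (adjusted p = 0.0432), in ranges of 0.0167 to 0.398 and 0.0432 to 0.711 over all fits.

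Other long noncoding RNAs of the same kinds were read from lists made with earlier results of these data known. Of 8 names described as p53-induced, 5 had a value and 2 were tested, and 1 rose, where 4.79% of all genes tested rose. The tested gene that did not pass, MIR34AHG, stood higher in shWDR43 (log2 difference 0.573, limma adjusted p = 0.2301). With 2 genes tested, this count cannot tell whether p53-induced RNAs rose as a set. PURPL, a p53-induced RNA that dampens p53, had 6.41 and 4.99 FPKM in shWDR43 against 2.51 and 1.48 FPKM in shNC, a ratio of 2.86 (log2 difference 1.18, limma adjusted p = 0.0220). Its promoter was picked after the PURPL values were seen. It is shown for comparison with OLMALINC because 2 p53 decamers, in capitals, lie side by side in it (RefSeq, GRCh38.p14, chr5:27472155-27472194, plus strand). This arrangement was found in 6 of 35116 promoter windows.
PURPL: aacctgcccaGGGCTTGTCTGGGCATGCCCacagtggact
CDKN1A, the p53 target that encodes the cell-cycle inhibitor p21, rose to 239 and 229 FPKM in shWDR43 against 73.8 and 75.7 FPKM in shNC (limma, adjusted p = 0.000865). LINC-PINT, which p53 also induces, stood lower in shWDR43 without passing the threshold (limma, adjusted p = 0.0857), and its value is uncertain. No promoter window of LINC-PINT held a p53 decamer. ASNS, asparagine synthetase and a target of the amino-acid response, fell like OLMALINC, with 41.5 and 43.0 FPKM in shWDR43 against 101 and 123 FPKM in shNC (limma, adjusted p = 0.00304).

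Of 38 other cancer-linked long noncoding RNAs, 36 had a value and 28 were tested, with a median log2 difference of -0.03. Of these 28, 1 rose (3.57%) and 2 fell (7.14%). The shares were 4.79% and 1.47% of all genes tested, and 1.55% and 3.37% of long noncoding genes tested. JPX, an activator of XIST in X inactivation, had 2.81 and 3.22 FPKM in shWDR43 against 5.33 and 5.52 FPKM in shNC (-0.68, limma adjusted p = 0.0230). LINC00963, first described in prostate cancer, had 10.9 and 8.62 FPKM in shWDR43 against 15.6 and 16.7 FPKM in shNC (-0.68, limma adjusted p = 0.0267). Both fell, and these 2 calls, like that of PURPL, were lost with no filter on low values. HOTAIRM1, an antisense RNA of the HOXA cluster, rose, with 6.67 and 6.72 FPKM in shWDR43 against 4.61 and 4.02 FPKM in shNC (0.54, limma adjusted p = 0.0343). The HOTAIRM1 call was lost without shWDR43 replicate 1 (adjusted p = 0.0880) and without shWDR43 replicate 2 (adjusted p = 0.0891), and also with upper-quartile scaling, with sums made equal without MT- genes and with no filter, so that it held in 9 of 14 fits, in a range of 0.0113 to 0.130 over all fits.

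The fall of OLMALINC can be set against the whole class. Of 1099 long noncoding genes tested, 17 rose (1.55%) and 37 fell (3.37%), with a median log2 difference of -0.08, whereas of 12204 other genes 620 rose (5.08%) and 159 fell (1.3%), with a median of 0.05. No test of the difference between the classes was made. Long noncoding genes were also lower in level, with a median of 1.85 FPKM against 7.41 FPKM over all genes tested. Among those at a mean of 5 FPKM or more, 7 of 157 long noncoding genes rose and 13 fell, against 529 and 142 of 8220 genes in all. Leaving out each library in turn, 13 to 45 long noncoding genes rose and 33 to 115 fell, with the highest of both without shNC replicate 2. Their median difference was below 0 in every fit.

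**Figure D4:**
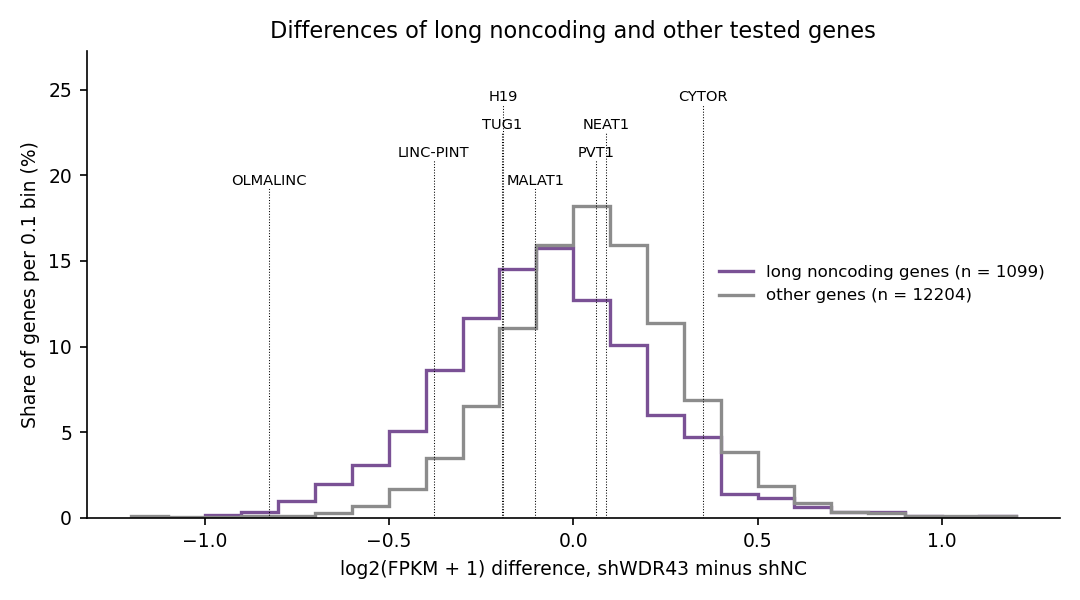
Share of genes in each bin of 0.1 of the log2(FPKM + 1) difference, shWDR43 minus shNC, for 1099 long noncoding genes and 12204 other genes, with the 8 long noncoding RNAs marked by dotted lines and values beyond the axis put in the outermost bins. The long noncoding outline lies left of the other, with medians of -0.08 and 0.05, and OLMALINC is in its left tail.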

How the data were processed

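RNA sequencing of 4 HCT116 libraries was used, 2 shWDR43 and 2 shNC, grouped by the sample titles. Per the labels' protocols, 1 ug of Trizol-extracted total RNA went into each library, made with a TruSeq RNA kit from Illumina. The submitters' processing notes list GRCh38 and, with no role or order, HISAT2, RSEM, edgeR, Trimmomatic, FastQC and CASAVA 1.8. The sources used here give no annotation release or strand setting. No header names the unit: from their range, the values that the authors deposited were taken to be FPKM, and their depth is unknown. Each table held 29286 genes and 1 blank entry without a value, which was left out. Symbols were found for 29170 genes and GENCODE 29 positions for 28468. WDR43 and CCAT1 were not analysed here.

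The 13303 genes that reached 1 FPKM in 2 or more libraries were fitted with limma 3.58.1 (R 4.3.3) on log2(FPKM + 1), with the group as the only term, a mean-variance trend and robust moderation. This scale understates the change of low genes. P-values were two-sided, adjusted by Benjamini-Hochberg over all genes tested, and called below 0.05. The model was run on values simulated with variances from its own fit, so that run cannot speak to outlying libraries.

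The 9 genes and the lists were chosen with earlier results of these data known. The genes named are all 9 and up to 4 changed members of each list by smallest p (the 2 smallest where none changed). The rule also names the nearest tested protein-coding gene on each side that does not overlap, and overlapping genes with a mean of 1 FPKM or more. It further names MYC, CDKN1A and ASNS, and the 3 genes nearest in profile to a changed member. MIR4435-2HG, the second LINC-PINT gene, PURPL's promoter and the p53-induced RNAs other than PURPL were added after their values were seen. Not every gene that the rule picks is reported here. Alternatives were a pseudocount of 0.1, no filter, a filter at 5 FPKM, 3 other scalings, robust settings off, a fit with a replicate block, and each library left out in turn, where the lone library left is assumed to vary like the other group. Transcripts were compared with BLASTN 2.17.0, and promoters were matched by symbol, with windows for 6 of the 9 genes. Python 3.11.15 with pandas 2.3.3 and matplotlib 3.10.9 made the tables and figures.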

Additional observations from a re-analysis of the deposited data

How the results depend on the processing

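OLMALINC stayed lower in all 13 alternatives and kept its call in 12. NEAT1, TUG1 and H19 kept their direction and passed in none. Signs turned for MALAT1 without shNC replicate 2 (0.30), and for PVT1 with upper-quartile scaling (-0.0077) and without shWDR43 replicate 1. Leaving out each library, MALAT1 ran from -0.50 to 0.30 and PVT1 from -0.016 to 0.14. Against 1 of the 8 genes changed as reported, no filter on low values gave 0 and a filter at 5 FPKM gave 2, and leaving out each library gave 1 to 3. Genes changed over the whole table numbered 833 as reported, 17 with no filter, 450 with median-ratio scaling and 391 to 2610 when each library was left out. List genes changed numbered 8 as reported, 0 with no filter and 4 to 19 when each library was left out. The no-filter fit tests 26938 genes. The cause of the changes between fits was not tested.

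The labels do not pair the replicate numbers, and same-numbered libraries deviated with a correlation across genes of -0.147. With the replicate block, 1 of the 8 genes, 563 of all genes and 7 list genes changed. Under it the calls of ELAC2 and TARDBP were lost and MRPL23 passed. The crossed block, chosen after seeing the data, gave 3, 1954 and 14. Its 3 genes were OLMALINC, CYTOR (limma adjusted p = 0.0385) and LINC-PINT (limma adjusted p = 0.0445). The median difference over all genes ran from -0.01 to 0.07 across settings. The count of genes below 1 FPKM in every library was 0 under each scaling and at a limit of 0.5 FPKM. The depth is unknown, so what the depth allows for H19, near 1 FPKM, cannot be stated.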

Other observations

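MIR100HG, the host of a microRNA cluster, had 29.7 and 30.3 FPKM in shWDR43 against 45.5 and 46.5 FPKM in shNC, and it fell (log2 difference -0.60, limma adjusted p = 0.0143). EPIC1, a long noncoding RNA described as a MYC-interacting transcript, had 10.6 and 9.47 FPKM in shWDR43 against 16.3 and 19.9 FPKM in shNC, and it fell (-0.79, limma adjusted p = 0.0195). Groups did not overlap for either gene, as for 57.3% of all genes tested, and both calls were lost in the fit with no filter on low values. Both genes were chosen after their values were seen.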
